A study of Mus musculus with 8 samples.

Results

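The genes described here are 9 regulators of haematopoietic stem cell (HSC) self-renewal: Mecom, Hlf, Meis1, Prdm16, Etv6, Mllt3, Zfp521, Nkx2-3 and Bmi1. The rule that assigns peaks to them uses gene positions and no measured value, though the list of names was drawn up with earlier results of these data known. Every called peak over each gene body plus 50 kb on each side (mm10) was assigned to them. A window can also hold neighbours, such as Megf6 and Arhgef16 beside Prdm16, Commd3 beside Bmi1 and Slc25a28 beside Nkx2-3. All 9 of the 21631 annotated protein-coding genes were found, and their windows held 3193 of the 867023 peaks of the series. The cells were HSCs sorted from mouse bone marrow as Lin-cKit+Sca1+CD48-CD150+ cells of C57BL/6 mice about 10 months old. Marrow cells came from pools of 4 or 5 animals, and each CUT&RUN assay used 7500 sorted cells. In this assay an antibody guides protein A-MNase to release the DNA of marked nucleosomes for sequencing. The RXRKO mice carried Vav-Cre, which is active across blood cells and not in HSCs alone, and floxed Rxra and Rxrb genes. The sources disagree on the WT mice, which are Rxrabfl/fl without Cre in the design text and VavCre+; WT in the genotype field. On the first reading both groups carry the floxed alleles, and an effect of Cre cannot be told apart from one of the receptors. H3K4me1 was mapped in 2 WT and 2 RXRKO libraries, and H3K4me3 and H3K27ac in 1 library of each genotype.

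These genes encode DNA-binding proteins and chromatin factors known for keeping stem cells from differentiating or for marking the most primitive HSCs. H3K4me3 marks the starts of active or poised genes, H3K4me1 marks enhancers and the flanks of starts, and H3K27ac marks the active members of both classes. Retinoid X receptors are nuclear receptors that bind DNA mostly as partners of other receptors, including the retinoic acid, PPAR and LXR receptors, at pairs of a short half-site. Mecom and Prdm16 are paralogs with a PR domain and zinc fingers, and Mecom has an upstream start for its long form and a downstream start for its short EVI1 form. Hlf encodes a PAR bZIP factor, Meis1 a TALE homeodomain partner of HOX proteins, Etv6 an ETS repressor, Nkx2-3 a homeodomain factor and Zfp521 a zinc finger cofactor. Mllt3 (AF9) reads acylated histones and recruits DOT1L and elongation factors, and Bmi1 is a subunit of Polycomb repressive complex 1.

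RefSeq promoter windows (GRCm38.p6, the mm10 assembly) were found for 8 of the 9 genes, with 10 annotated starts in all. The 250 bases before 6 of these starts are printed because the marks within 1 kb carried the findings below. They were H3K4me3 without H3K27ac at Hlf, Nkx2-3 and Bmi1, and unlike marks at the 2 Mecom starts. At the upstream Mllt3 start H3K27ac within 1 kb was in WT alone. Capitals mark matches, on either strand, to 6 short motifs: the nuclear receptor half-site, the E-box, the GC box, and the sites of MEIS, ETS and GATA factors. The letters of each stand with its count after the sequences, and matches may overlap.
Hlf, chr11:90390918-90391167 (minus strand): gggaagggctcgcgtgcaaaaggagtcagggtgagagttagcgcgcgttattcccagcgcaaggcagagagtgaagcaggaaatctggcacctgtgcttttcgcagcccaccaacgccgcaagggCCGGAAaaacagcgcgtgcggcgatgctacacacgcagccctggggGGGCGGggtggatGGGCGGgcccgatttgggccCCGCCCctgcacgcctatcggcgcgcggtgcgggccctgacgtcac
Nkx2-3, chr19:43612075-43612324 (plus strand): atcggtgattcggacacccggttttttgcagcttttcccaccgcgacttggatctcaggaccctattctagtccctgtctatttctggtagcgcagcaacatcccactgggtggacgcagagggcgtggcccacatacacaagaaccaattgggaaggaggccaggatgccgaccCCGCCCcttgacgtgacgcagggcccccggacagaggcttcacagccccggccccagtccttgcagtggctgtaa
Bmi1, chr2:18676768-18677017 (plus strand): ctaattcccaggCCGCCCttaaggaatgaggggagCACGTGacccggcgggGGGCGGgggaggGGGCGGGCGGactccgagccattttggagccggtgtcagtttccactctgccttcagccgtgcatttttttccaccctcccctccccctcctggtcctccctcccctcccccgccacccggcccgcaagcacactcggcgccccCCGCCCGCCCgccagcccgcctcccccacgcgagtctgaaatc
Mecom upstream start, chr3:30509760-30510009 (minus strand): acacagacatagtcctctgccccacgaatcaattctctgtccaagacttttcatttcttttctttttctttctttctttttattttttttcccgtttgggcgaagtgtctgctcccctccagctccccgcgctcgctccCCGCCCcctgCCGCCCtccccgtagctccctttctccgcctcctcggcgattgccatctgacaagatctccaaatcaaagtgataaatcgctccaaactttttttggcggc
Mecom downstream start, chr3:30013205-30013454 (minus strand): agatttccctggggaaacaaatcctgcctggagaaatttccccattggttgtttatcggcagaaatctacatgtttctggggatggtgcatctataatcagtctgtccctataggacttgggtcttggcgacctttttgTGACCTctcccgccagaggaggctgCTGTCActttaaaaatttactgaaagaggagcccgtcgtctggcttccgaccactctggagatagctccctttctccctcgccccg
Mllt3 upstream start, chr4:88033408-88033657 (minus strand): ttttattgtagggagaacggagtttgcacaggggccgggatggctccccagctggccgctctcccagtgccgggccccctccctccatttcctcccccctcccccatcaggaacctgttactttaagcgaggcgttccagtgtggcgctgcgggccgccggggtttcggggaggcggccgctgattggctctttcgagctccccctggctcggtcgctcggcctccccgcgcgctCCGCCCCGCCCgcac
The GC box, searched as GGGCGG, was in 7 of the 10 windows, against 43.1% of the 21045 promoter windows of the same length. The nuclear receptor half-site, searched as AGGTCA, was in 1 of 10, the downstream Mecom start, against 12.8% of all windows, and 2 half-sites as a direct repeat 1 base apart (DR1) were in 0 of 10, against 0.0428%. The MEIS site, searched as TGACAG, was in 2 of 10 windows and 15.0% of all. The ETS site, searched as CCGGAA, was in 2 of 10, at Hlf and Meis1, and 15.1% of all. The E-box CACGTG was in 1 of 10, at Bmi1, and 6.70% of all, and the GATA site, searched as AGATAA, was in 0 of 10 and 8.84% of all. The HLF-type palindrome TTACGTAA was in 0 of 10, against 0.128% of all windows. The windows were unlike in base composition: the Hlf window held 26 CpG and was 67.2% G or C, whereas the downstream Mecom window held 8 CpG at 50.4% and the downstream Mllt3 window 4 CpG at 45.2%. The median window held 10 CpG at 55.6%.

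The paralogs Mecom and Prdm16 shared 1 run of at least 24 bases just after the upstream Mecom start and the Prdm16 start, beginning at base 27 and base 10. At Mecom the run reaches the end of the searched window, 50 bases after the start, so its full length is not known.
Shared run: GCGCATGTGCGAAGGTGTCCAAAC
No other promoter row among 32851 held this run on either strand, and the next longest run shared by any of the 43 pairs of starts of different members was 12 bases. The run lies after the start, outside the bases printed above.

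Depth cannot be read from peak lists. As a stand-in, the lists held 147698 to 165128 peaks for H3K4me1, 47835 (WT) and 58136 (RXRKO) for H3K4me3, and 74287 (WT) and 64849 (RXRKO) for H3K27ac. Both replicate 1 H3K4me1 libraries carry one run tag in their peak names and the other 6 libraries another. The sorted identity was checked at the starts of marker genes: 6 of 6 HSC markers with an annotated start had H3K4me3 within 1 kb in both genotypes, summing to 8404 bp in WT and 8535 bp in RXRKO. The starts of 2 B-cell markers and 5 granulocyte and monocyte markers had 0 bp in both. Of 3 T-cell markers Cd3e and Cd3g were at 0 in both genotypes, and Lck had 226 bp in RXRKO alone. Of 2 erythroid markers Hba-a1 was at 0 and the other had 599 bp in WT and 618 bp in RXRKO, and 2 of 2 endothelial markers were marked (3226 and 3233 bp). In H3K27ac, Lck had 495 bp in WT and 281 bp in RXRKO, Mpo 429 bp in WT alone, and the HSC marker Kit none in RXRKO. The 2 endothelial markers had 2082 bp of H3K27ac in WT and 2713 bp in RXRKO. The erythroid marker other than Hba-a1 had 327 and 136 bp. The part of other cells in the results below was not tested. In pooled cells, fewer cells carrying a mark and less of the mark per cell cannot be told apart.

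Each window was rich in H3K4me1. At Mecom, peaks covered 83357 and 80390 bp of the 658.5 kb window in WT replicates 1 and 2, and 79948 and 93964 bp in the RXRKO replicates. At Prdm16 the WT values were 50717 and 55404 bp and the RXRKO values 50737 and 62443 bp, and at Etv6 41502 and 47432 bp against 40370 and 49720 bp. At Mllt3 they were 49513 and 46919 bp against 46850 and 54296 bp, and at Zfp521 47068 and 42905 bp against 44368 and 50070 bp. In these 5 genes the second RXRKO library, which has the longest peak list, was the highest and the genotypes overlapped. Meis1 had 29275 and 30202 bp in WT and 30078 and 33530 bp in RXRKO, Hlf 17504 and 17101 bp against 16779 and 19146 bp, and Bmi1 11025 and 9912 bp against 9862 and 10398 bp. At Nkx2-3 peaks covered 18412 and 20776 bp of 103.6 kb in WT and 17706 and 19171 bp in RXRKO, which was 17.1 to 20.1% of the window and above at least 94.7% of all genes in each library. Bmi1 was the least covered, at 10.1% in WT replicate 1 and 9.49% in RXRKO replicate 2, still above the all-gene medians of 7.27 to 8.65%. Inside the 3.6 kb Nkx2-3 gene itself neither H3K4me1 nor H3K27ac was called in any library, so its coverage lay wholly in the flanks. In H3K4me3 the highest covered shares were at Nkx2-3 (11.7% in WT, 13.0% in RXRKO) and Meis1 (10.0% and 11.1%), and the lowest at Zfp521 (2.42% and 3.30%), which was below the medians of 3.49% and 3.99%.

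**Figure D1:**
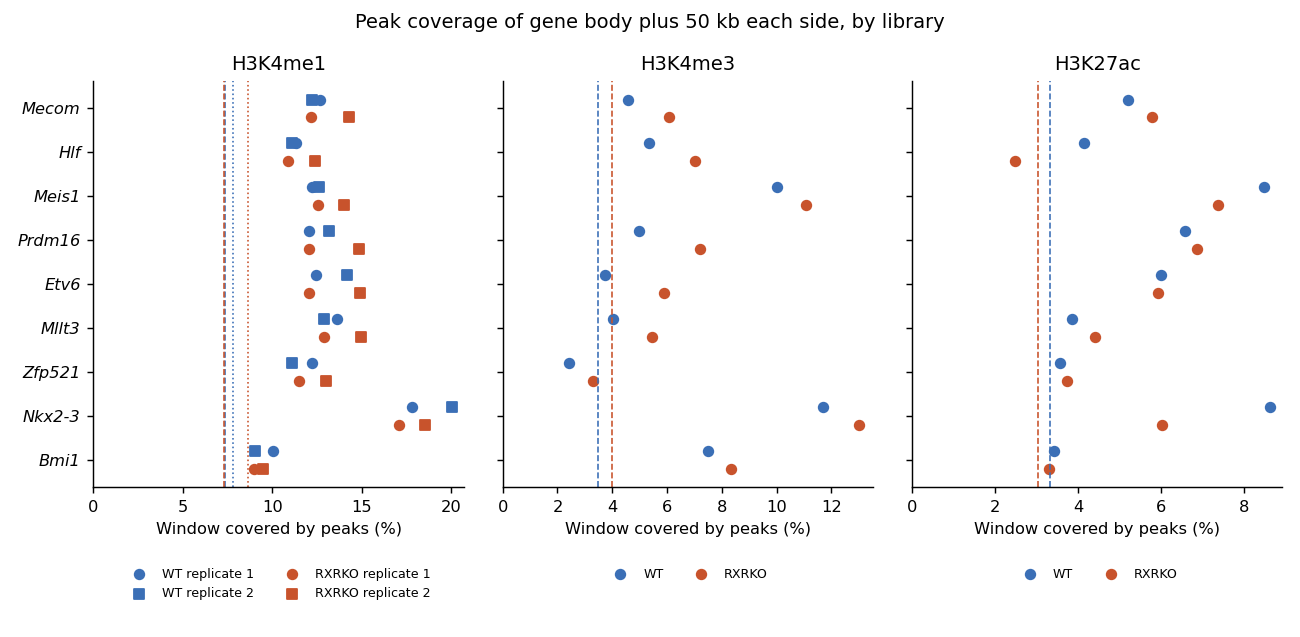
Percent of each gene's window (gene body plus 50 kb each side) covered by called peaks, 1 point per library, WT in blue and RXRKO in orange, with the median of all genes in each library as a vertical line (dotted for replicate 2). All 9 genes lie above the H3K4me1 medians, and Hlf crosses the H3K27ac median, from 4.14% in WT to 2.48% in RXRKO.

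The first comparison asked whether loss of the receptors changed enhancer priming at these genes, and it was the only one with replicates. None of the 9 genes passed in H3K4me1 covered length (limma on log2 of base pairs + 1000, centred per library, adjusted p under 0.05), and 0% of the 18650 genes tested passed. At an unadjusted p under 0.05 there were 0 members and 1195 genes of all. The differences, RXRKO minus WT, ran from -0.14 to 0.04 on the log2 scale with a median of 0.01, and the median of all genes was 0.00. The standard errors were 0.06 to 0.07, and 0.10 at Bmi1. This fit took no account of the run tags, each of which holds 1 H3K4me1 library of each genotype. With the replicate number as a block, 0 members and 486 of 18650 genes passed. Nkx2-3 then had an unadjusted p of 0.025 and an adjusted p of 0.32 (limma).

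At Mecom the difference was 0.03 ± 0.07 (SE, n = 2 against 2), at Prdm16 0.03 ± 0.06 and at Hlf -0.01 ± 0.07. Meis1 stood at 0.04 ± 0.06, Etv6 at -0.04 ± 0.06, Mllt3 at 0.01 ± 0.07 and Zfp521 at 0.01 ± 0.07. Bmi1 stood at -0.10 ± 0.10, and the libraries of the genotypes overlapped at all 8 of these genes. Within the runs of replicates 1 and 2, Bmi1 differed by -0.13 and -0.06, Etv6 by -0.02 and -0.06, Meis1 by 0.05 and 0.02 and Prdm16 by 0.02 and 0.04. The sign differed between runs at Mecom, Hlf, Mllt3 and Zfp521.

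Nkx2-3, the homeodomain factor, was the member whose libraries did not overlap. Its centred log2 levels were 0.67 and 0.75 in WT and 0.63 and 0.51 in RXRKO, a difference of -0.14 ± 0.07 (-0.04 and -0.24 within the runs) with an adjusted p of 0.81 (limma). Both RXRKO libraries below both WT libraries was found for 1 of 9 members and for 16.5% of all genes, and the opposite order for 0 of 9 members and 18.1% of all genes. Before centring the groups overlapped, as the base pairs above show. With peaks of fold 4 or more alone, the difference at Nkx2-3 was 0.14. At that setting the members' median was -0.21 against 0.04 for all genes, with Etv6 at -1.30 ± 0.20 and Meis1 at -0.46 ± 0.23, and again 0 of 9 were called (lowest adjusted p 0.55, limma).

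Single H3K4me1 regions were compared next. Peaks in the windows merged into 688 regions, and 378 of them had a peak in every library (54.9%, against 61.8% of all regions). In both RXRKO libraries and no WT library 21 regions were called (3.05%, against 2.17% of all regions), and in both WT and no RXRKO library 12 (1.74%, against 1.94%). They were short, with a median of 380 and 365 bp against 900 bp for the shared ones. Leaving out a library makes the rule rest on 1 library of that genotype. With the first or second WT library out, the RXRKO count was 36 or 47, and the WT count 45 or 28. With the first or second RXRKO library out, the RXRKO count was 103 or 32, and the WT count 32 or 34.

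The strongest of the RXRKO regions lay in Etv6 132 kb after its start (chr6:134167888-134168316, fold 1.98 and 2.08), in Mllt3 (chr4:88013388-88013646, 2.06 and 1.89) and in Mecom (chr3:30291137-30291497, 2.55 and 2.17). The strongest WT regions lay in Meis1 (chr11:18972498-18972767, fold 1.73 and 1.79), Mecom (chr3:30142360-30142729, 2.13 and 2.15) and Etv6 (chr6:134175100-134175472, 1.75 and 1.71). All 6 lay inside gene bodies, none had H3K4me3 or H3K27ac in either genotype, and their folds were under the list medians of 3.31 to 3.80.

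At the starts, H3K4me3 was wide and of low fold. Of 17274 genes with an annotated start, 66.8% had an H3K4me3 peak within 1 kb in both genotypes, as did 8 of the 8 members with an entry. Within 5 kb of the Prdm16 start H3K4me3 covered 5273 bp in WT and 5716 bp in RXRKO, above 99.99% of the 11534 genes with H3K4me3 at a start in both genotypes, whose medians were 1731 and 1771 bp. Nkx2-3 had 4061 and 4814 bp and Hlf 3834 and 4469 bp. At Mecom the upstream start had 3521 bp in WT and 4175 bp in RXRKO, and the downstream start 3642 and 3439 bp. At Mllt3 the upstream start had 4283 and 3948 bp and the downstream start 3339 and 4064 bp, so in both genes the order of the genotypes differed between the starts. Bmi1 had 3442 and 3371 bp and Etv6 3223 and 4106 bp. By the better covered start in each library, these 7 genes were above at least 95.9% of those genes in both genotypes. The 5 kb span of Bmi1, however, also takes in H3K4me3 at the start of its neighbour Commd3. Within 1 kb of its own start Bmi1 had 1014 bp in WT and 1047 bp in RXRKO. Meis1, with 2443 and 2469 bp, was the narrowest and above 83.3% and 82.6%.

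The fold of the strongest start peak, its height over the background that the peak caller used, went the other way. It was 1.91 (WT) and 1.94 (RXRKO) at Nkx2-3, 2.19 and 2.34 at Meis1, 2.46 and 2.27 at Prdm16, and 2.71 and 2.79 at Hlf. It reached 3.12 and 3.17 at Etv6, 3.20 and 3.24 at the downstream Mecom start, 3.68 and 3.37 at Mllt3, and 3.86 and 3.62 at Bmi1, against medians of 8.23 and 8.30 over marked starts. Each of the 8 genes was thus in the lowest 4.69% of marked starts by fold, in both genotypes. Zfp521 had a fold of 2.46 in WT and 2.47 in RXRKO at the end taken as its start, but that end was picked by its H3K4me3.

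**Figure D2:**
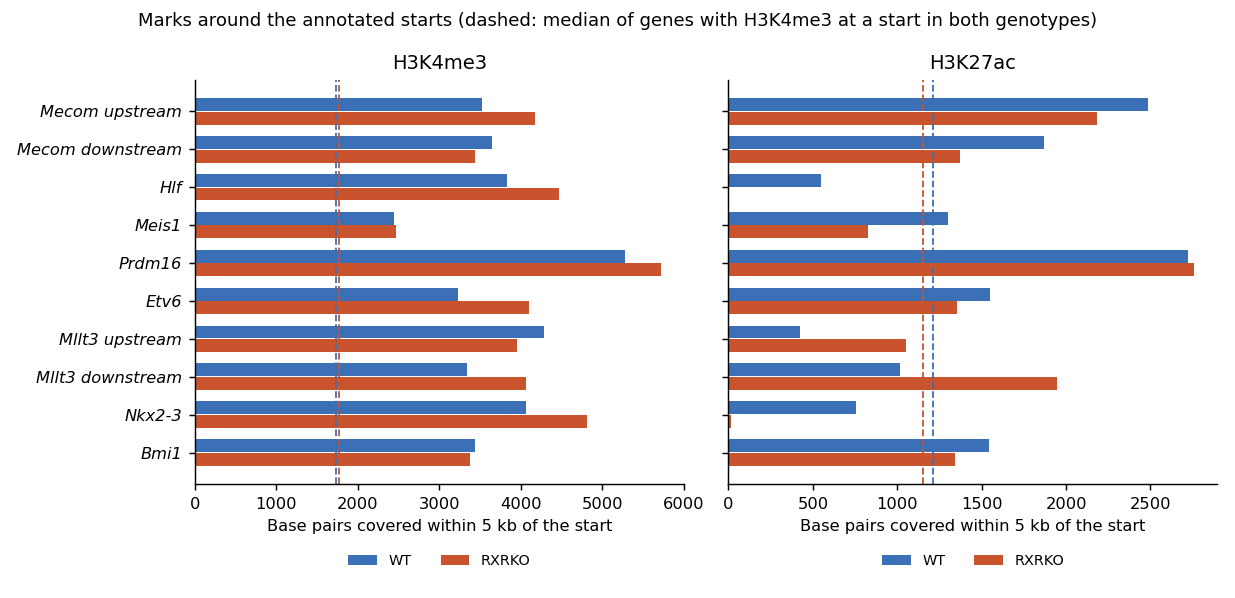
Base pairs covered by H3K4me3 (left) and H3K27ac (right) peaks within 5 kb of each annotated start of 8 genes, WT in blue and RXRKO in orange, with the median over all genes with H3K4me3 at a start in both genotypes as a dashed line. H3K4me3 exceeds the median in both genotypes at all 10 starts, whereas H3K27ac covers 548 bp in WT and 0 bp in RXRKO at Hlf, and 757 and 15 bp at Nkx2-3.

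Acetylation was wide beside H3K4me3 at some of these starts but not at others. Within 5 kb of the Prdm16 start H3K27ac exceeded 99.67% (WT) and 99.64% (RXRKO) of genes with H3K4me3 at a start in both genotypes. At Mecom it exceeded 98.97% and 96.84%, but at Nkx2-3 19.66% and 9.71% and at Hlf 13.05% and 0%. The other genes lay between these. No H3K27ac was called within 1 kb of the start of Hlf, Nkx2-3 or Bmi1 in either genotype, which is 3 of 8 members, against 8.83% of the 11534 genes with H3K4me3 at a start in both. The upstream Mecom start also had none within 1 kb, though 2485 bp (WT) and 2182 bp (RXRKO) lay within 5 kb. The downstream Mecom start had 836 and 480 bp within 1 kb, with folds of 3.54 and 2.75. At Etv6 there were 1082 and 916 bp, and at Meis1 538 and 264 bp. H3K27ac lay within 1 kb in WT alone at 2 starts. These were the upstream start of Mllt3, with 424 bp at a fold of 3.43, and Prdm16, with 348 bp at a fold of 2.10. Within 5 kb, however, the upstream Mllt3 start had 424 bp in WT and 1050 bp in RXRKO, and Prdm16 2723 and 2759 bp. At the downstream Mllt3 start both genotypes had H3K27ac within 1 kb, with 627 and 420 bp. These values come from 1 library of each genotype, so no test is possible.

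Over the whole windows H3K4me3 covered more base pairs in the RXRKO library at all 9 genes. After centring, 6 of the 9 differences lay above 0, against 7133 of the 17782 genes also tested in H3K4me1. Among genes of at least 100 kb 64.5% lay above 0, and among shorter genes 36.5%. The median centred difference of all genes was -0.04, and all 9 members lay above it. In Etv6, the ETS repressor, peaks covered 12435 bp in WT and 19719 bp in RXRKO, a centred log2 difference of 0.48 that exceeded 98.0% of 17845 genes. In Prdm16 they covered 20976 and 30381 bp (0.37), in Mecom 30068 and 39957 bp (0.25) and in Mllt3 14594 and 19864 bp (0.27). Zfp521 had 9328 and 12742 bp (0.27) and Hlf 8239 and 10859 bp (0.21). Meis1, Nkx2-3 and Bmi1 stood at -0.01 each, with 23947 and 26454 bp, 12128 and 13461 bp, and 8237 and 9130 bp. Without centring the median of all genes was 0.11, and these 3 were also above 0.

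The stretches called in RXRKO alone were short. Of 238 merged H3K4me3 regions in the windows, 70 were called in RXRKO only (29.4%, against 22.2% of all regions), 7 in WT only (2.94%, against 4.22%) and 161 in both. The RXRKO-only regions had a median of 356.5 bp, against 851 bp for shared ones, and 57 of the 70 had H3K4me1 in all 4 H3K4me1 libraries (81.4%, against 91.1% of all RXRKO-only H3K4me3 regions). By gene, RXRKO-only regions were 14 of 34 at Etv6, 11 of 27 at Mllt3, 16 of 50 at Mecom and 10 of 37 at Prdm16, but 5 of 33 at Meis1 and 0 of 9 at Bmi1. The RXRKO list is the longer one. With the 47835 strongest peaks of each list 33 regions were left to RXRKO alone and 21 to WT alone. The differences at that setting were 0.39 at Prdm16, 0.33 at Zfp521 and 0.26 at Etv6, but 0.11 at Mecom, 0.08 at Mllt3 and 0.07 at Hlf. With a fold of 4 or more, Hlf turned to -0.24, from 2056 bp in WT to 1751 bp in RXRKO.

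Gene length moved with this difference too. The median over 2318 genes of at least 100 kb was 0.07, and over 15527 shorter genes -0.05. Among the long genes Etv6 stood above 94.0%, Prdm16 above 88.4%, Mllt3 above 80.5%, Zfp521 above 79.6% and Mecom above 78.1%, and Meis1 above 33.7%. With equal peak numbers Prdm16 stood above 94.34% of 2313 long genes, Zfp521 above 91.48% and Etv6 above 86.55%. Mecom then stood above 64.81%, Mllt3 above 58.5% and Meis1 above 8.56%. The part of length in the result was not tested.

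**Figure D3:**
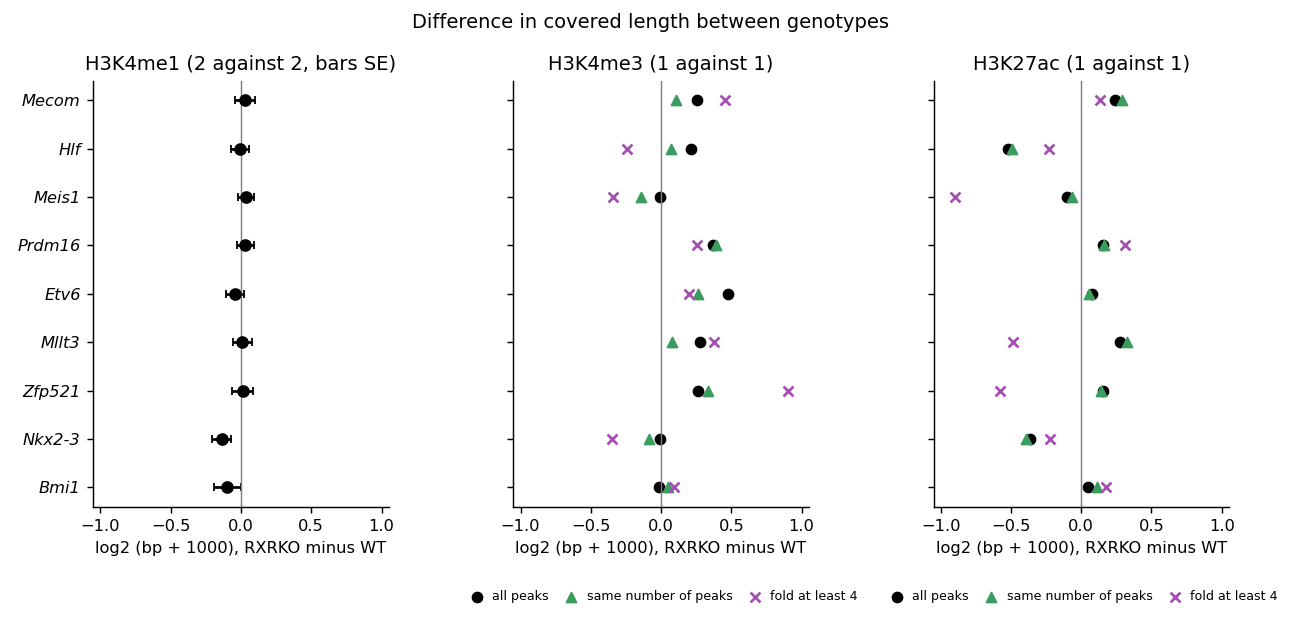
Difference in log2 (covered bp + 1000), RXRKO minus WT, centred per library, for each gene and mark. H3K4me1 points have SE bars (2 against 2 libraries) and lie between -0.14 and 0.04. H3K4me3 and H3K27ac compare 1 library with 1, under 3 choices of peaks, and Etv6 is left out of the fold setting for H3K27ac because it had 0 bp there in both genotypes.

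Among the H3K4me3 regions in RXRKO only, the 3 of highest -log10 q were 2 at Prdm16 and 1 at Zfp521. One lay 2.9 kb upstream of the Prdm16 start (chr4:154639761-154640436, fold 1.95). Another lay deep inside Prdm16 (chr4:154359320-154360438), with a fold of 6.12, above the RXRKO list median of 5.35. The region in Zfp521 (chr18:13761343-13762147) had a fold of 5.99. The intragenic ones had H3K4me1 and H3K27ac called in every library, so only the H3K4me3 call differed between the genotypes. Their H3K27ac folds in WT and RXRKO were 4.5 and 5.63 at Prdm16, and 4.01 and 3.44 at Zfp521. In WT only, the first 3 were a region 36 kb after the Nkx2-3 start (chr19:43648449-43648746, fold 5.28), 1 lying 29 kb upstream of Hlf (chr11:90419530-90419864, 3.15) and 1 in Etv6 (chr6:134043772-134044078, 1.68).

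In H3K27ac the genes split. Hlf had 6387 bp in WT and 3835 bp in RXRKO, a log2 difference of -0.52, lower than all but 2.33% of 17235 genes. Nkx2-3 had 8930 and 6236 bp (-0.37, lower than all but 6.26%), and Meis1 20300 and 17672 bp (-0.10). Mllt3 had 14024 and 16053 bp (0.27), Mecom 34232 and 38028 bp (0.24), Zfp521 13756 and 14429 bp (0.16), Prdm16 27675 and 28914 bp (0.15), Etv6 20069 and 19861 bp (0.08) and Bmi1 3751 and 3609 bp (0.05). Without centring Etv6 stood at -0.01 and Bmi1 at -0.04, as the median of all genes was then -0.09. The RXRKO list is the shorter one here. With the same 64849 peaks in each list Hlf stood at -0.49 and Nkx2-3 at -0.39. With a fold of 4 or more, Hlf stood at -0.23 and Nkx2-3 at -0.22, whereas Mllt3 turned to -0.48 and Zfp521 to -0.58. Meis1 stood at -0.90 there, with 2846 bp in WT and 845 bp in RXRKO, and at -0.30 with a -log10 q of at least 5. Nkx2-3 has 0 bp in its own body, so its difference lies in the flanks, where Slc25a28 also lies.

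Over all 9 windows the count of regions was near the background. Of 307 merged H3K27ac regions, 71 were called in WT only (23.1%, against 23.9% of all regions), 45 in RXRKO only (14.7%, against 13.0%) and 191 in both. Of the 307, 290 lay over 1 kb from every annotated start, and 276 of these had H3K4me1. At Hlf 9 of 18 regions were called in WT alone, 3 in RXRKO alone and 6 in both. At Nkx2-3 WT alone had 7 of 13, RXRKO alone 1, and both genotypes 5.

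Around Hlf, the PAR bZIP factor, the region nearest the start that WT alone had lay 2.9 kb inside the gene (chr11:90387424-90387971, fold 2.30), within the wide H3K4me3 domain of both genotypes. A region 27 kb upstream (chr11:90417681-90418377) was in both, with a fold of 4.93 over 673 bp in WT and 3.65 over 287 bp in RXRKO. The longest acetylated region of Hlf was in RXRKO only, 18 kb inside the gene (chr11:90372039-90372972, 934 bp, fold 2.08).

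Around Nkx2-3 the longest acetylated region, 10.7 kb upstream (chr19:43598803-43601629), was called in both genotypes. It spanned 2827 bp, with 2697 bp in WT at a fold of 3.97 and 2711 bp in RXRKO at 3.78, and had H3K4me1 and H3K4me3 in every library. The WT-only regions lay on both sides of the gene. The strongest was 36 kb after the start (chr19:43648323-43648754, fold 4.86), and its H3K4me3 was also called in WT only, while its H3K4me1 was called in all 4 libraries with folds of 4.45 and 5.10 in WT and 5.39 and 6.06 in RXRKO. Another lay 18.6 kb after the start (chr19:43630964-43631367, fold 4.85), with H3K4me3 in both genotypes.

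**Figure D4:**
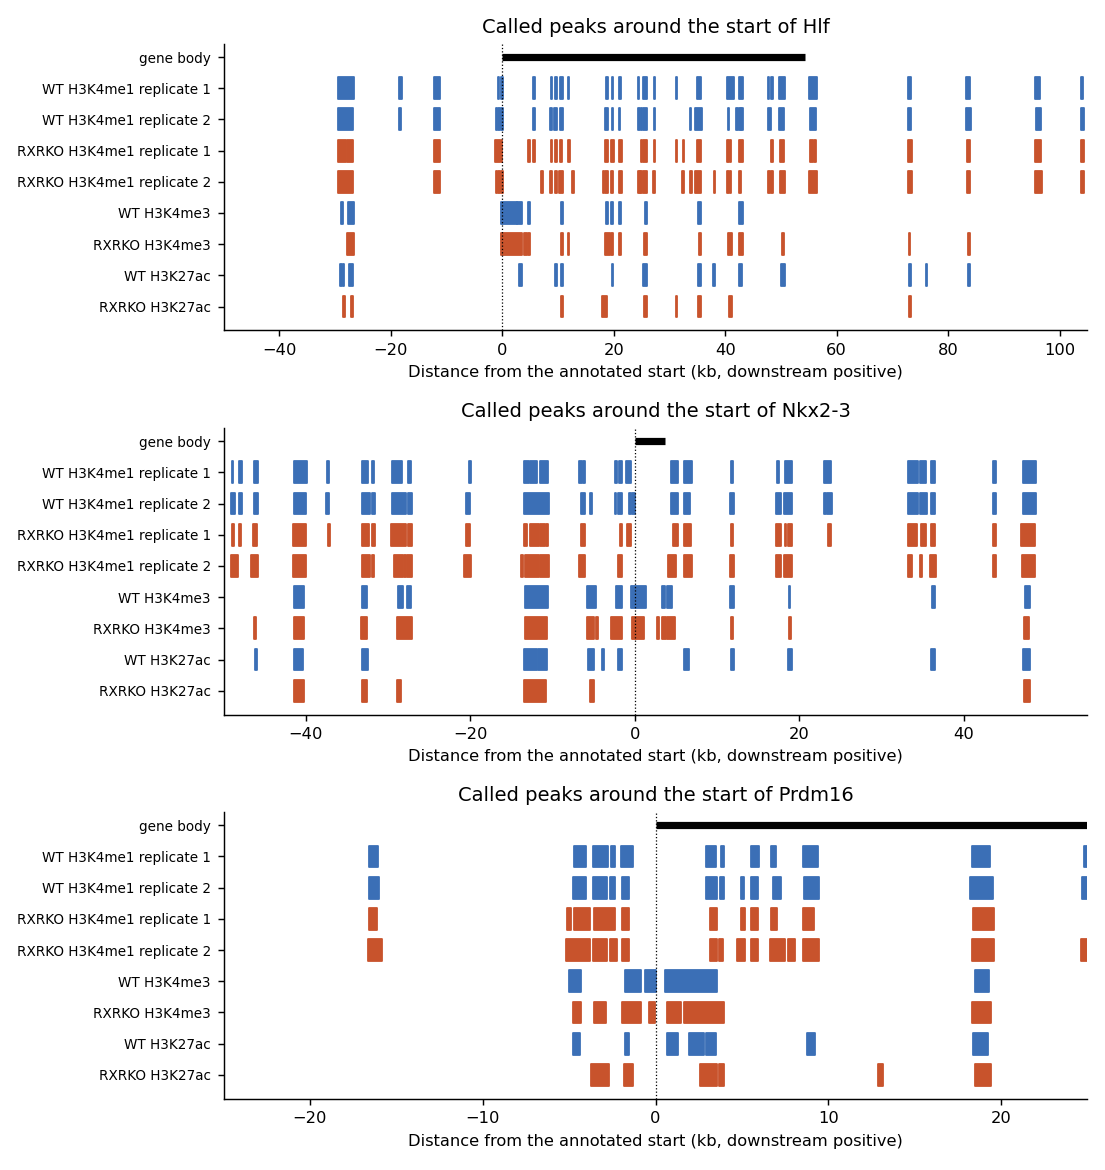
Called peaks by library against the distance from the annotated start in kb (downstream positive) at Hlf, Nkx2-3 and Prdm16, WT in blue and RXRKO in orange, with the gene body as a black bar. Of the H3K4me1 regions 21 of 38 at Hlf, 21 of 29 at Nkx2-3 and 52 of 83 at Prdm16 have a peak in every library. The Nkx2-3 region 36 kb after the start has H3K4me3 and H3K27ac in WT alone, and the Prdm16 region 2.7 kb upstream has both in RXRKO alone.

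The Prdm16 window held 9 H3K27ac regions called in WT alone, 6 in RXRKO alone and 33 in both. H3K27ac peaks there covered 27675 bp in WT and 28914 bp in RXRKO. A pattern opposite to that of the strongest WT-only Nkx2-3 region was seen near the Prdm16 start. A region 2.7 kb upstream of the start (chr4:154639580-154640593) had H3K27ac over 1014 bp in RXRKO only, at a fold of 2.66, together with H3K4me3 in RXRKO only, and H3K4me1 in all 4 libraries at folds of 2.76 to 2.98. The others of highest -log10 q in RXRKO only were in Bmi1 (chr2:18684183-18684431, fold 4.34), with no other mark in any library, and in Mecom (chr3:30390292-30390766, 3.60). In WT only, the next after the Nkx2-3 region were in Meis1 (chr11:18927328-18927779, fold 3.02) and at the upstream Mllt3 start (chr4:88033179-88033602, 3.43). Of the 45 acetylated RXRKO-only regions 7 had H3K4me3 in RXRKO only, a share of 15.6% near the 16.0% of all such regions. Of the 71 in WT only, 2 had H3K4me3 in WT only (2.82%, against 4.19% of all) and 9 in RXRKO only (12.7%, against 7.59%).

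The longest acetylated region of most other genes was called in both genotypes. It was 2233 bp in Prdm16 (chr4:154389883-154392115), 2055 bp past the Meis1 end (chr11:18874969-18877023), 1697 bp in Zfp521 (chr18:13786512-13788208), 1606 bp in Mecom (chr3:30329264-30330869) and 1237 bp in Mllt3 (chr4:87822888-87824124). For Etv6 it was 1652 bp at the edge of the window, 49 kb upstream (chr6:133984853-133986504). For Bmi1 it was 1199 bp (chr2:18671941-18673139), at the start of its neighbour Commd3.

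Acetylated peaks within 12.5 kb of each other were joined into domains and ranked by acetylated base pairs within each library. The highest domain of Mecom ranked 338 of 31548 in WT and 186 of 31116 in RXRKO, but the 2 are different stretches, the first holding the upstream start and the second lying within the long gene. At Meis1 (525 and 225) the 2 domains overlapped in only a small part, and at Nkx2-3 (946 and 2245) they did not overlap, lying around the gene and upstream of it in WT and far downstream in RXRKO. Prdm16 ranked 375 and 224 and Hlf 1841 and 3048, with overlapping domains. Ranks are within 1 list and are not a measured change.

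Among the genes with covered lengths most like the members' median profile over the 8 libraries, by Euclidean distance of centred log2 values, were Hipk2 (0.32), Baz2b (0.34), Dock9 (0.35) and Palld (0.42), against a median distance of 4.52 over all genes. All 8 libraries share their gene lengths, so long genes are near to each other by construction. Among 26 other HSC regulators, 0 rose and 0 fell in H3K4me1 (limma), 13 lay above 0 and 2 had an unadjusted p under 0.05. Their lowest were Lmo4 at -0.32 ± 0.11 and Sox17 at -0.13 ± 0.11, and their highest Gata2 at 0.19 ± 0.07 and Hoxa10 at 0.15 ± 0.11. Among 32 partners of the members' proteins, 0 rose and 0 fell, 20 lay above 0 and 1 had an unadjusted p under 0.05. Pbx2 (-0.09 ± 0.10) and Phc3 (-0.08 ± 0.09) were lowest, and Nfil3 (0.19 ± 0.08), a bZIP repressor at sites shared with HLF, and Pbx3 (0.17 ± 0.08), a partner of MEIS1, were highest. Of all 18650 genes 9467 lay above 0. In H3K27ac the lists' medians were -0.05 and -0.08, and the members' 0.08, against 0.01 for all genes and 0.04 for genes of at least 100 kb.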

How the data were processed

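The 9 genes, the gene lists and the markers were chosen with earlier results of these data known. CUT&RUN peak lists of 8 mouse HSC libraries were used, 1 list per library. Per the submitters' processing notes, reads were trimmed with cutadapt 1.7.1 and aligned with Bowtie2 2.2.5 to mm10, and the authors called peaks with MACS3. Its version and the use of a control or spike-in were not given. The deposited columns are a score, a ratio (fold of the peak over the caller's background) and -log10 p and q, all made by the authors' caller. Read counts were not used here, so the depth is unknown and there is no counting interval.

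From the lists, the base pairs covered by peaks in each gene body plus 50 kb each side were computed, transformed as log2 of base pairs + 1000 and set relative to the median gene of the library (centred). Genes with a mean of at least 1000 bp were tested in limma 3.58.1 (R 4.3.3, lmFit and eBayes with trend) with Benjamini-Hochberg adjustment, for H3K4me1 alone. H3K4me3 and H3K27ac have 1 library per genotype and no test. Nothing in the labels ties the 2 replicates to separate pools of mice, so p-values measure the spread between libraries. Regions are unions of peaks overlapping by at least 1 bp. Starts and promoter bases came from RefSeq (GRCm38.p6, 17274 genes), and for Zfp521 the start was the gene end with more H3K4me3 within 2 kb. For H3K4me1 the replicate number goes with the run tag in the peak names. The H3K4me3 and H3K27ac libraries all carry the tag of H3K4me1 replicate 2. H3K4me1 replicate differences in WT and RXRKO correlated across 18650 genes, which are not independent, with r = 0.21. Named regions were, by mark and direction, the 3 with the highest -log10 q, the start peaks and each gene's longest acetylated region, and named list genes the 2 highest and 2 lowest. Named genes outside the lists were taken from the 5 most like the members, of which 1 is not reported here. The regions nearest the Hlf start and others of Hlf and Nkx2-3 were picked after their values were seen. The settings with a fold of at least 4, gene length and 5 kb around starts were added after seeing the data. The scripts were tested on simulated data. Tables used Python 3.11.15, numpy 2.4.6 and pandas 2.3.3, and figures matplotlib 3.10.9.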

Additional observations from a re-analysis of the deposited data

How the results depend on the processing

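The count of members called in H3K4me1 was 0 under every setting run: windows of 20 kb or the gene body (8 genes tested), a pseudocount of 100 bp, no filter, no centring, -log10 q of at least 5, equal peak numbers, a fold of at least 4, and each library left out. With the replicate number as a block (replicate block) it was also 0, with a lowest member adjusted p of 0.32 (limma). In that fit 486 of 18650 genes were called, against 0 in the main fit. Genes outside the list were also called with no filter (178 of 21631), no centring (53 of 18650) and a -log10 q of at least 5 (2 of 18592). Counts over all genes with a library left out are not given, as 1 library then stands for a genotype. Of 116 alternative H3K4me1 differences 25 changed sign, none of them called. With a -log10 q of at least 5, regions in both RXRKO and no WT libraries numbered 12 for H3K4me1, and H3K4me3 regions in WT only 4. At equal peak numbers 33 H3K4me3 regions were left to RXRKO and 21 to WT. With a fold of at least 4, chosen after seeing the data, the counts were 1 (H3K4me1, RXRKO), 21 (H3K4me3, RXRKO), 12 (H3K4me3, WT), 5 (H3K27ac, RXRKO) and 20 (H3K27ac, WT), from fewer peaks. Leaving out 1 library gave 32 to 103 H3K4me1 regions in RXRKO and 28 to 45 in WT. The log2 difference at Hlf in H3K27ac ran from -0.93 to -0.23 over the settings, the last at a fold of at least 4, with 673 and 276 bp. At Nkx2-3 it ran from -0.55 to 0.04, the last in the gene body, which had 0 bp. Unknown depth, 1 library per genotype for 2 marks and unequal list lengths limit each of these values, and the causes of the changes were not tested.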
